A study of Mus musculus with 32 samples.

Results

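Expression of 10 genes of transforming growth factor-β (TGF-β) and bone morphogenetic protein (BMP) signaling was described across 32 mouse arrays in 7 groups. The genes were the ligands Tgfb1, Tgfb2 and Tgfb3, the receptors Tgfbr1, Tgfbr2 and Bmpr1a, the signal-carrying Smad2 and Smad3, and the inhibitory Smad6 and Smad7. They are 10 of 19938 genes that a probeset of the platform names alone. A member was read from the probeset whose platform symbol is exactly its name. Among several it would have been selected on the highest mean signal over all arrays, but each of the 10 had 1 probeset, so that no measured value decided. The genes themselves were picked with earlier results of these arrays known, including those of Smad7, so their being on the list is no evidence, and each p-value below is adjusted over all 28944 probesets.

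TGF-β ligands are secreted in a latent form, are freed outside the cell and bind the type II receptor Tgfbr2, which then activates the type I receptor Tgfbr1. Tgfbr1 phosphorylates Smad2 and Smad3, which enter the nucleus with Smad4. BMP ligands act through type I receptors such as Bmpr1a on another set of Smads, and Smad6 and Smad7 dampen both branches, Smad7 being itself a target gene of TGF-β. In the bone marrow, TGF-β is known as a restraint on the growth of precursor B cells.

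The study asked how the loss of Myd88, an adaptor of Toll-like and interleukin-1 receptors, acts on precursor B cells that carry 1 functional copy of Pax5. Pax5+/- mice, which lack 1 copy of this B-cell transcription factor in every cell, can develop B-cell leukemia after infection. The proB experiment held 4 arrays each of Pax5+/-;Myd88-/-, Pax5+/-;Myd88+/-, Pax5+/- and WT cells from healthy mice, taken from bone marrow with magnetic beads against B220. The study's methods describe growth of such proB cells, from animals 2 to 3 weeks old of 3 of these genotypes, with interleukin-7 on ST2 stromal feeder cells. The leukemia experiment held leukemic bone marrow of 6 Pax5+/-;Myd88+/- and 6 Pax5+/- mice and, as the normal counterpart, 4 samples of proB and preB cells (B220low IgM-) sorted from WT mice. All labels state that animals lived free of specific pathogens until the age of 2 months and then under exposure to common pathogens. They also state that there was no treatment and that each array is a biological replicate, but give no age at sampling. The age in the culture methods lies before the labeled 2 months. If the proB arrays came from such cultures, the labels and the methods differ on exposure.

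Values are log2 signals, so that 1 unit is a 2-fold difference, and a level of one gene cannot be set against that of another. Array medians lay between 6.88 and 7.03. Myd88 had a mean of 7.32 for Pax5+/-;Myd88-/- proB cells, 8.64 for Pax5+/-;Myd88+/-, 9.28 for Pax5+/- and 9.46 for WT, and 8.83, 10.13 and 10.08 in the Pax5+/-;Myd88+/- leukemias, the Pax5+/- leukemias and the sorted WT cells, in the order of the labeled gene dose. The means of 9 measured B-lineage markers lay between 11.62 and 12.22 in all proB and sorted samples and between 9.04 and 11.93 in the leukemias. Xist was above 9 in all 4 arrays of both Myd88-deficient proB groups and in none of the Pax5+/- and WT proB groups. Sex and Myd88 genotype thus cannot be told apart where a Myd88-deficient proB group is compared with a Myd88-intact one. Pax5+/- against WT and Pax5+/-;Myd88-/- against Pax5+/-;Myd88+/- proB cells are not split in this way. The 10 genes lie on autosomes, and a sex difference in their levels was not tested. Xist was also above 9 in 3 of 6 Pax5+/-;Myd88+/- leukemias, 1 of 6 Pax5+/- leukemias and 4 of 4 sorted WT samples, so that WT proB and sorted WT cells are fully split by it as well.

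The proB arrays were not 4 equal replicates per group. In WT proB cells, replicates 1 and 3 and replicates 2 and 4 correlated at 0.9979 or more, all other pairs at 0.9912 or less. In Pax5+/- cells these limits were 0.9965 and 0.9951. The Myd88-deficient genotypes had no such split by correlation. There the lower of these 2 pairs was at 0.9972 (Pax5+/-;Myd88-/-) and 0.9949 (Pax5+/-;Myd88+/-), while other pairs reached 0.9977 and 0.9961. The mean of 10 stromal and feeder markers (Col1a1, Pdgfra, Cxcl12 and others) was 8.06 and 8.14 in replicates 1 and 3 and 6.96 and 7.01 in replicates 2 and 4 of Pax5+/- cells, and 8.06 in both of replicates 1 and 3 and 7.43 in both of replicates 2 and 4 of WT cells. Both Myd88-deficient genotypes had the same order, with gaps of 0.22 (Pax5+/-;Myd88-/-) and 0.59 (Pax5+/-;Myd88+/-) between the 2 pairs of replicates, and sorted WT cells lay between 6.31 and 6.45. If the pairs share a culture, p-values in the proB experiment are too small. The proB counts are therefore also given with replicates 1 and 3 and replicates 2 and 4 averaged in all 4 genotypes. Counts with replicates 2 and 4 alone, which had less stromal marker signal, are given as well. That fit is no remedy for a shared culture, since each genotype would then be a single culture, and its p-values would be too small too.

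Promoter sequences of Tgfb2 and Bmpr1a are shown because both genes were over 2-fold higher in Pax5+/- than in WT proB cells. Tgfb3 and Smad7, which were so too, are not shown. Each sequence is the 250 bases before a transcription start listed by RefSeq (GRCm38.p6), written on the strand of the gene, which is the minus strand for both, with letters AGAC or GTCT, the core box that Smad3 and Smad4 bind, and GGCGCC, a box known for BMP-regulated Smads, in capitals. Both windows lie within the annotated span of their gene, so the start they precede is not its outermost one.
Tgfb2, chr1:186705990-186706239: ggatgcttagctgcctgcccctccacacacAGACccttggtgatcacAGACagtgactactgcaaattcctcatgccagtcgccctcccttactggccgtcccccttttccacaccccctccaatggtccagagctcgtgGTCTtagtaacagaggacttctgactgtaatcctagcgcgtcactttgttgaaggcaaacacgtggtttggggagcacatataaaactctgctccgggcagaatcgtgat
Bmpr1a, chr14:34502547-34502796: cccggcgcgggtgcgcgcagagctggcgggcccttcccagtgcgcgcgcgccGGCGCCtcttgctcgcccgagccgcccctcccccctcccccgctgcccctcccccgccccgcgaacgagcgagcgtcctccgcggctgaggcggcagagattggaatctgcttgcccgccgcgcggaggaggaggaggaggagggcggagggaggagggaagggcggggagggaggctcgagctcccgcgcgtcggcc
The Tgfb2 window holds 3 AGAC or GTCT boxes and no GGCGCC, and the Bmpr1a window 1 GGCGCC and no AGAC or GTCT. Either strand was searched in 32851 such windows of the genome, of which 82.9% hold an AGAC or GTCT box (median 2 per window) and 9.59% a GGCGCC. The GC content was 53.6% in the Tgfb2 window and 78.8% in the Bmpr1a window, against a median of 52.4% over all windows. Of the 10 members 7 have a sequence in the table used.

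The largest differences lay among the proB cells, and they fell on 4 of the 10 genes. Compared with WT, Pax5+/- proB cells had more Tgfb2, Tgfb3, Smad7 and Bmpr1a RNA, by 2.29-, 2.60-, 3.75- and 5.21-fold. In Pax5+/- cells that had also lost 1 Myd88 allele, all 4 were lower than in Pax5+/- cells, and Tgfb3 was lower than in WT cells too. In cells without Myd88, Tgfb2, Tgfb3 and Smad7 were again lower than in Pax5+/- cells, whereas Bmpr1a was higher.

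**Figure D1:**
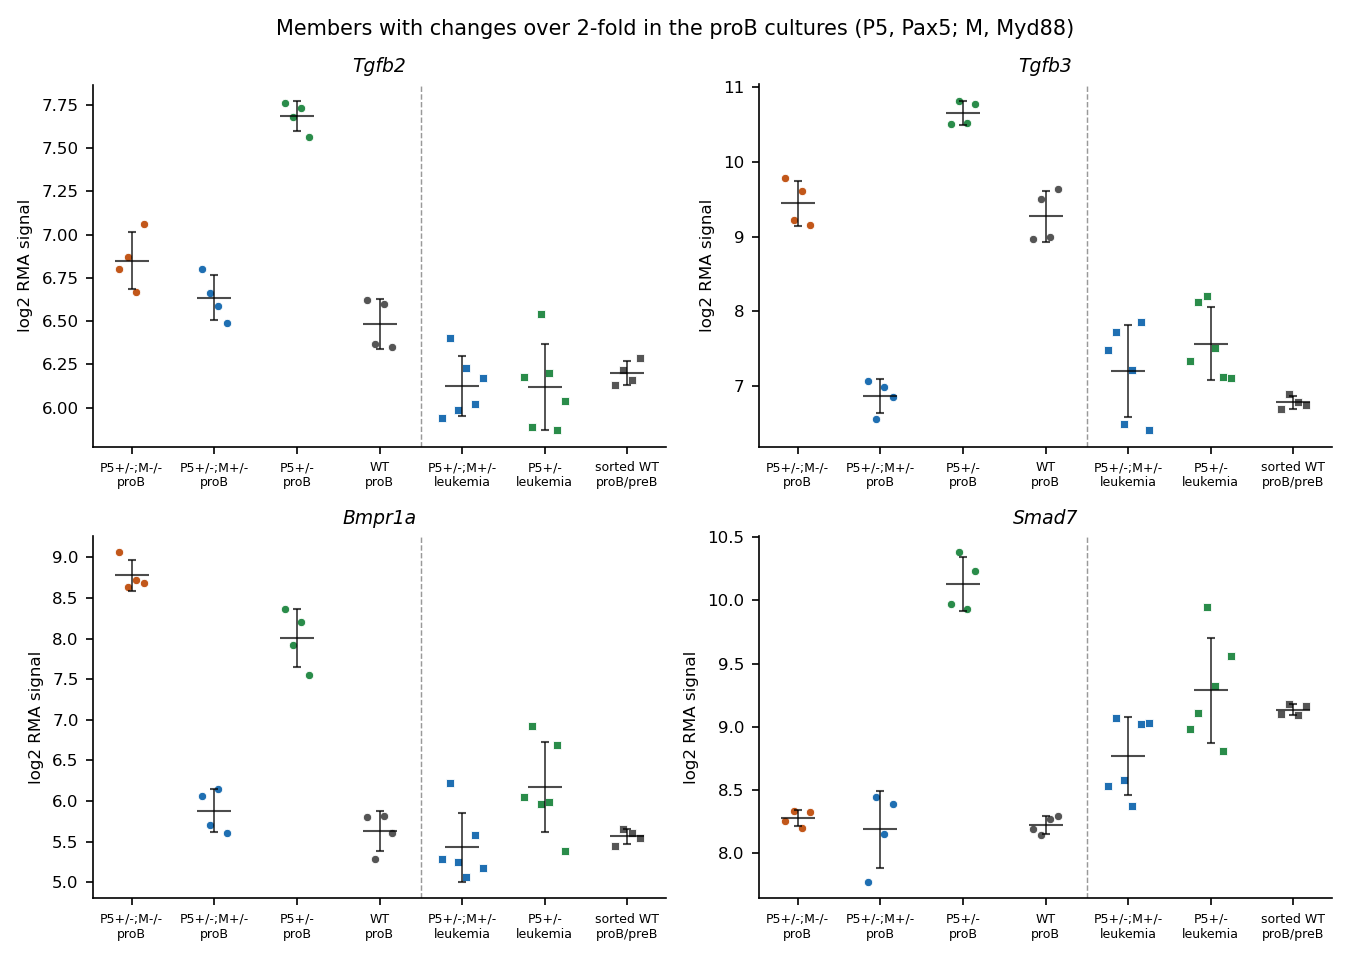
Log2 signal of Tgfb2, Tgfb3, Bmpr1a and Smad7 in each array (points), with mean and SD (bars), by group (P5, Pax5; M, Myd88; circles, proB cells; squares, leukemias and sorted WT cells). Pax5+/- proB cells stand above WT proB cells in all 4 panels, Pax5+/-;Myd88+/- proB cells fall to 6.87 for Tgfb3, and Pax5+/-;Myd88-/- proB cells reach 8.78 for Bmpr1a.

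Tgfb3, a ligand of the TGF-β receptor complex encoded on chromosome 12 (chr12:86056743-86079041), differed most. It read 7.07, 6.56, 6.99 and 6.85 in Pax5+/-;Myd88+/- proB cells, replicates 1 to 4, against 10.50, 10.81, 10.52 and 10.77 in Pax5+/- proB cells. The difference was -3.78 (SE 0.17, adjusted p = 2.17e-10), or 13.8-fold in RMA signal. The Pax5+/-;Myd88+/- mean of 6.87 is under the lowest array median and near that of sorted WT cells, 6.78, and was not shown to be above background. Against WT proB cells, which read 8.97, 9.50, 8.99 and 9.63, Pax5+/-;Myd88+/- cells differed by -2.41 (SE 0.17, adjusted p = 5.85e-08) and Pax5+/- cells by 1.38 (SE 0.17, adjusted p = 3.4e-05).

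Cells with no Myd88 did not continue this course. Tgfb3 read 9.78, 9.22, 9.61 and 9.16 in Pax5+/-;Myd88-/- proB cells, which is between the 2 other Myd88 genotypes and overlaps WT cells. It was higher than in Pax5+/-;Myd88+/- cells by 2.57 (SE 0.17, adjusted p = 3.96e-08) and lower than in Pax5+/- cells (-1.21, SE 0.17, adjusted p = 0.000157). Against WT cells the difference was 0.17 (95% interval -0.19 to 0.53, adjusted p = 0.554), and with replicates 2 and 4 alone it was -0.38 (adjusted p = 0.0317), the opposite direction. With replicates averaged in pairs, the rise over WT in Pax5+/- cells (adjusted p = 0.0592) and the fall in Pax5+/-;Myd88-/- against Pax5+/- cells (adjusted p = 0.0805) no longer passed an adjusted p of 0.05, while the 3 comparisons that involve Pax5+/-;Myd88+/- cells did.

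Tgfb2, the ligand known for its role in the developing heart and eye, was dim on these arrays, with a group mean under 6.88, the lowest array median, in all groups but Pax5+/- proB cells. It read 7.76, 7.68, 7.73 and 7.56 in Pax5+/- proB cells against 6.62, 6.37, 6.60 and 6.35 in WT proB cells, a difference of 1.20 (SE 0.09, adjusted p = 1.55e-07). Pax5+/-;Myd88+/- cells, at 6.80, 6.66, 6.59 and 6.49, were lower than Pax5+/- cells (-1.05, SE 0.09, adjusted p = 8.27e-07). Pax5+/-;Myd88-/- cells, at 6.80, 6.87, 6.67 and 7.06, were lower than Pax5+/- cells (-0.83, adjusted p = 1.11e-05) and higher than WT cells without overlap (0.37, adjusted p = 0.0114), the second call being lost with averaged pairs (adjusted p = 0.149). The 4 Pax5+/- arrays thus stood above the 12 arrays of the other genotypes, with no overlap.

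The remaining ligand, Tgfb1, which is the main TGF-β of blood and immune cells, passed in no comparison of the proB experiment. Its group mean was 10.76 for Pax5+/-;Myd88-/-, 11.02 for Pax5+/-;Myd88+/-, 10.96 for Pax5+/- and 11.03 for WT cells. The closest was Pax5+/-;Myd88-/- against WT cells at -0.27 (95% interval -0.46 to -0.07, adjusted p = 0.06). Replicate numbers deviated together in that comparison, and with the replicate number as a block Tgfb1 passed there (adjusted p = 0.00667), as it did without WT replicate 1 (adjusted p = 0.0427) or 3 (adjusted p = 0.0338). Within each genotype Tgfb1 was lower in replicates 1 and 3, which had more stromal marker signal, than in replicates 2 and 4. With the stromal marker mean as a covariate, it passed as lower in Pax5+/-;Myd88-/- cells than in WT (-0.45, adjusted p = 0.00013), Pax5+/- (-0.32, adjusted p = 0.00121) and Pax5+/-;Myd88+/- cells (-0.34, adjusted p = 0.000653).

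Among the receptors, only Bmpr1a, a type I receptor for BMP ligands (chr14:34411061-34503336), passed in the proB experiment. It read 9.06, 8.64, 8.72 and 8.69 in Pax5+/-;Myd88-/- proB cells and 8.36, 7.92, 8.21 and 7.55 in Pax5+/- proB cells, against 5.80, 5.29, 5.81 and 5.61 in WT proB cells. Pax5+/-;Myd88+/- cells, at 6.06, 5.71, 6.15 and 5.61, overlapped WT cells. The signal was thus above the array median in 2 genotypes and below it in the other 2, and within the Pax5+/- background the cells with no Myd88 allele and those with both were on the same side.

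The rise in Pax5+/- over WT cells was 2.38 (SE 0.17, adjusted p = 8.27e-08), and Pax5+/-;Myd88+/- cells were lower than Pax5+/- cells (-2.13, SE 0.17, adjusted p = 3.59e-07). Pax5+/-;Myd88-/- cells were higher than Pax5+/-;Myd88+/- cells by 2.89 (SE 0.17, adjusted p = 1.14e-08) and than WT cells by 3.15 (SE 0.17, adjusted p = 2.42e-09) or 8.88-fold in RMA signal. The WT mean of 5.63 and the Pax5+/-;Myd88+/- mean of 5.88 lie well under the array medians and were not shown to be above background, which limits each fold against them. All 4 differences passed also with replicates averaged in pairs and with replicates 2 and 4 alone. The smaller difference of 0.77 between Pax5+/-;Myd88-/- and Pax5+/- cells (SE 0.17, adjusted p = 0.00862) did not pass with averaged pairs (adjusted p = 0.185). Pax5+/-;Myd88+/- and WT cells differed by 0.26 (95% interval -0.11 to 0.62, adjusted p = 0.547).

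The 2 receptors that bind TGF-β itself passed in no proB comparison. Tgfbr1, the type I receptor, had group means between 8.62 and 8.75 in the 4 genotypes, with the 95% intervals of its 6 differences between -0.28 and 0.23. Tgfbr2, the type II receptor, had group means between 9.72 and 9.91, with intervals between -0.40 and 0.42. Tgfbr2 lies 3.16 Mb from Myd88 on chromosome 9, so that it is the member nearest to the targeted locus, whereas Smad3 and Smad6 on the same chromosome are 55.6 and 55.3 Mb away. With replicates 2 and 4 alone, Tgfbr2 passed as higher in Pax5+/-;Myd88+/- than in WT cells, at 0.39 (adjusted p = 0.00818), and as lower in Pax5+/-;Myd88-/- than in Pax5+/-;Myd88+/- cells, at -0.30 (adjusted p = 0.0326).

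Smad7, which directs TGF-β receptors to degradation, was highest in Pax5+/- cells, as Tgfb2 was. It read 9.97, 10.38, 9.93 and 10.23 in Pax5+/- proB cells against 8.19, 8.14, 8.27 and 8.29 in WT proB cells, a difference of 1.91 (SE 0.12, adjusted p = 2.88e-08). Both Myd88-deficient genotypes overlapped WT cells, with 8.25, 8.33, 8.20 and 8.32 in Pax5+/-;Myd88-/- cells and 7.77, 8.44, 8.15 and 8.39 in Pax5+/-;Myd88+/- cells. Their differences from WT cells were 0.05 (95% interval -0.21 to 0.32) and -0.04 (95% interval -0.30 to 0.23), and their differences from Pax5+/- cells -1.85 (adjusted p = 3.76e-08) and -1.94 (adjusted p = 2.05e-08). These 3 changes passed in every alternative fit run.

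The other 3 Smads moved little or not at all. Smad3, a carrier of the TGF-β signal, read 8.73, 8.79, 8.82 and 8.73 in Pax5+/-;Myd88-/- proB cells, below every array of the other genotypes. It was lower than in Pax5+/- (-0.55, SE 0.08, adjusted p = 0.000179), WT (-0.33, adjusted p = 0.0081) and Pax5+/-;Myd88+/- cells (-0.38, adjusted p = 0.00587). With replicates averaged in pairs, none of these passed (adjusted p = 0.0535, 0.125 and 0.138, in the same order). Smad2, the partner of Smad3, and Smad6, which acts mainly on BMP receptors, passed in no proB comparison, with group means between 8.86 and 9.06 for Smad2 and between 6.83 and 6.91 for Smad6.

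**Figure D2:**
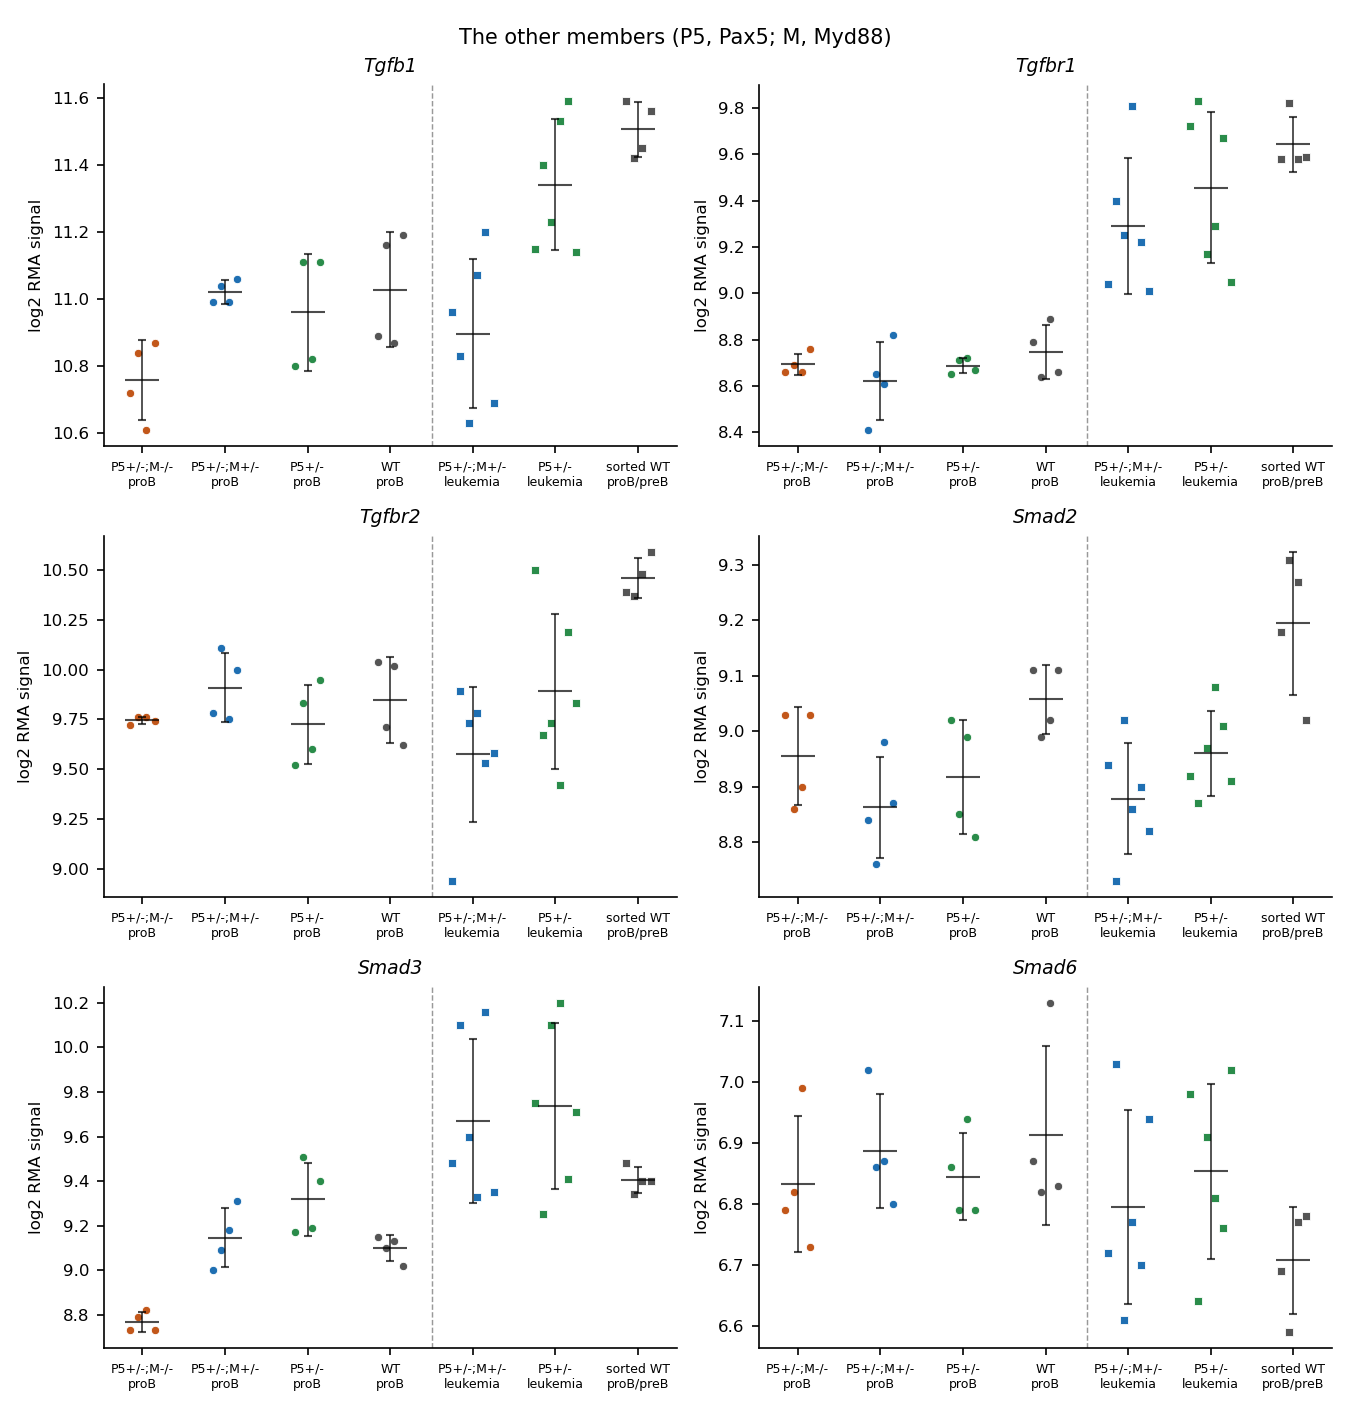
Log2 signal of the other 6 members in each array (points), with mean and SD (bars), by group (P5, Pax5; M, Myd88; circles, proB cells; squares, leukemias and sorted WT cells). Vertical axes differ between panels, and Smad3 in Pax5+/-;Myd88-/- proB cells lies below all other proB arrays.

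By count, 4 members rose and none fell in Pax5+/- against WT proB cells, where 4.10% of all probesets passed as higher and 2.96% as lower. In Pax5+/-;Myd88+/- against Pax5+/- cells none rose and 4 fell (2.02% and 2.29% of all probesets). In both comparisons all 4 were over 2-fold, against 1.08% and 0.812% of all probesets. In Pax5+/-;Myd88-/- against Pax5+/- cells 1 rose and 4 fell (6.66% and 4.86%), with 2 over 2-fold (0.985%).

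In Pax5+/-;Myd88-/- against Pax5+/-;Myd88+/- cells 2 rose and 1 fell (6.34% and 4.04%), with 2 over 2-fold (0.808%). In Pax5+/-;Myd88+/- against WT cells none rose and 1 fell (3.33% and 2.72%), and that 1 was over 2-fold (1.15%). In Pax5+/-;Myd88-/- against WT cells 2 rose and 1 fell (9.78% and 5.95%), with 1 over 2-fold (1.28%). The Pax5+/- group is shared by 3 of these comparisons and the WT group by 3, so the counts are not independent of one another. With replicates averaged in pairs, 3 members passed in Pax5+/- against WT cells, 4 in Pax5+/-;Myd88+/- against Pax5+/- cells, 2 in each comparison of Pax5+/-;Myd88-/- cells with another Pax5+/- genotype, and 1 in each remaining comparison with WT cells. With replicates 2 and 4 alone, 5 members passed in Pax5+/- against WT cells, where Smad3 was added (0.39, adjusted p = 0.0154), and 2 in Pax5+/-;Myd88+/- against WT cells. In Pax5+/-;Myd88-/- against WT cells 4 then passed, with Tgfb1 (-0.32, adjusted p = 0.0113) and the turned Tgfb3 added and Smad3 lost (adjusted p = 0.0514). In Pax5+/-;Myd88+/- against Pax5+/- cells 4 passed, and in Pax5+/-;Myd88-/- against Pax5+/- cells 6, with Tgfb1 added (-0.25, adjusted p = 0.0311). In Pax5+/-;Myd88-/- against Pax5+/-;Myd88+/- cells 5 passed, with Tgfb2 (0.39, adjusted p = 0.0226) and Tgfbr2 added. Over all probesets, calls fell with averaged pairs. With replicates 2 and 4 alone they rose in Pax5+/- and Pax5+/-;Myd88+/- against WT cells and in Pax5+/-;Myd88-/- against each other Pax5+/- genotype. Those counts are given in the closing section, and members gained or lost in these refits are no result particular to these genes.

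**Figure D3:**
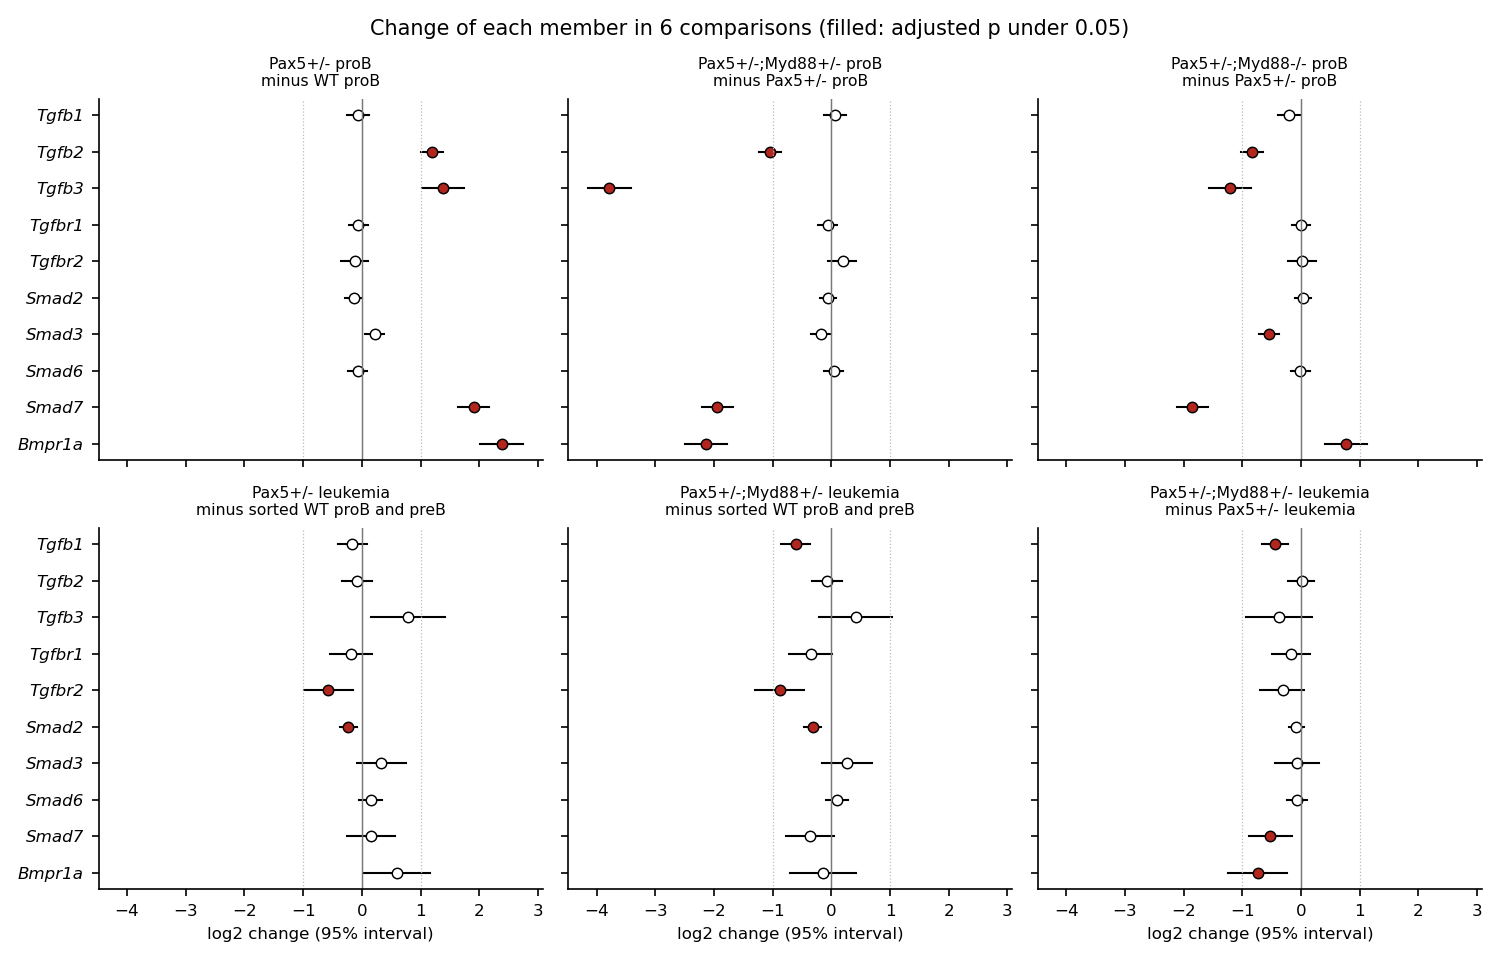
Difference in log2 signal of each member (points) with its 95% interval (lines) in 3 comparisons among proB cells and 3 in the leukemia experiment, and dotted lines at a 2-fold difference. Filled points passed an adjusted p of 0.05, and no filled point in the leukemia panels lies beyond a 2-fold difference.

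Stromal marker signal moved with some members within genotypes. Over the 16 proB arrays, deviations from the genotype mean correlated with those of the stromal marker mean at 0.83 for Bmpr1a, -0.73 for Smad7, -0.89 for Tgfb1 and -0.29 for Tgfb3, where 2 pairs of replicates per genotype make up most of the spread. Replicates 2 and 4 of Pax5+/-;Myd88-/-, Pax5+/-;Myd88+/- and Pax5+/- cells had nearly the same stromal mean (6.96 to 7.11), and there Bmpr1a read 8.64 and 8.69, 5.71 and 5.61, and 7.92 and 7.55. With the stromal marker mean as a covariate, the 4 rises over WT in Pax5+/- cells and the 4 falls of Pax5+/-;Myd88+/- against Pax5+/- cells all passed. The part of feeder RNA in the smaller differences was not tested beyond these fits. In bulk RNA, fewer cells of a type and less RNA per cell cannot be told apart.

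**Figure D4:**
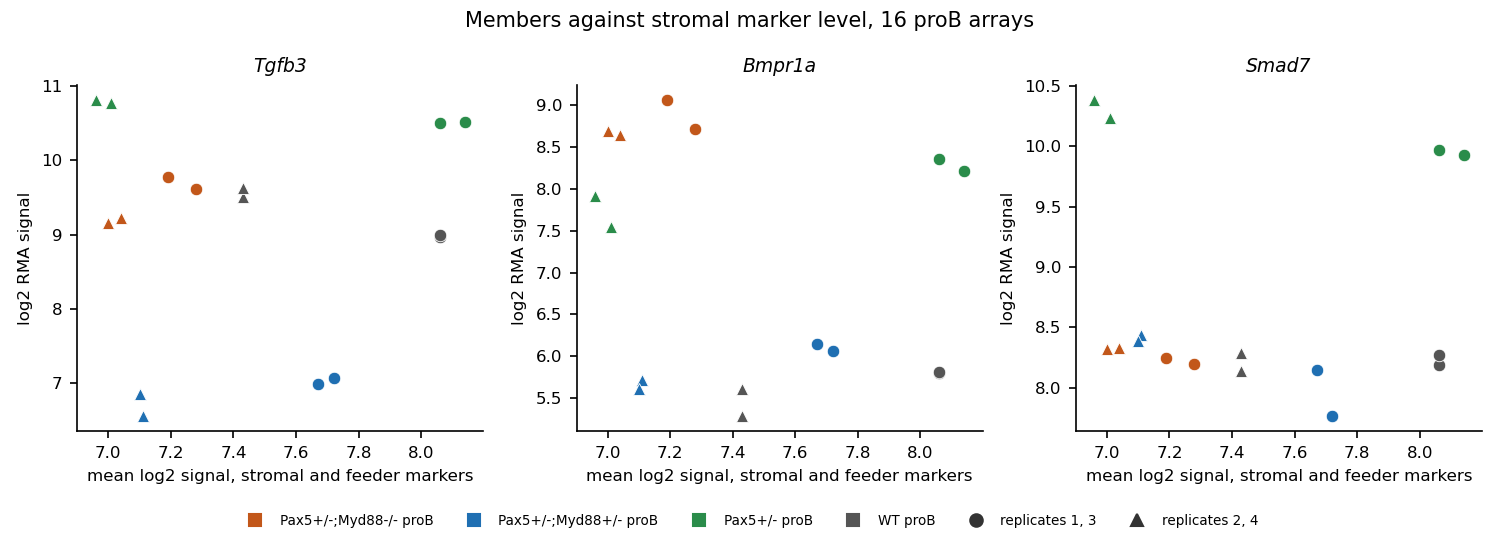
Log2 signal of Tgfb3, Bmpr1a and Smad7 against the mean log2 signal of 10 stromal and feeder markers in the 16 proB arrays, colored by genotype (circles, replicates 1 and 3; triangles, replicates 2 and 4). Within each genotype the circles lie to the right, and for Bmpr1a both Pax5+/-;Myd88-/- and Pax5+/- cells lie above Pax5+/-;Myd88+/- and WT cells, which overlap.

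In the leukemia experiment the passing differences were smaller than 2-fold, and those from sorted WT cells fell on other members. Compared with sorted WT cells, Pax5+/-;Myd88+/- leukemias had less Tgfb1, Tgfbr2 and Smad2, and Pax5+/- leukemias less Tgfbr2 and Smad2. Between the leukemias, those with 1 Myd88 allele had less Tgfb1, and less Smad7 and Bmpr1a, which were also lower in Pax5+/-;Myd88+/- than in Pax5+/- proB cells. Members passing were 0 higher and 3 lower in Pax5+/-;Myd88+/- leukemias against sorted WT cells (13.8% and 17.1% of all probesets), 0 and 2 in Pax5+/- leukemias against sorted WT cells (11.7% and 12.8%) and 0 and 3 between the leukemias (18.1% and 16.3%). No member passed with an over 2-fold change, against 7.64%, 4.44% and 3.82% of all probesets in the same order.

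Tgfb1 was the member with the firmest difference. It ranged over 10.63, 10.90 (median) and 11.20 in the Pax5+/-;Myd88+/- leukemias and over 11.14, 11.32 (median) and 11.59 in the Pax5+/- leukemias, against 11.59, 11.42, 11.45 and 11.56 in sorted WT cells. The Pax5+/-;Myd88+/- leukemias lay below sorted WT cells without overlap (-0.61, SE 0.12, adjusted p = 0.000873), and below the Pax5+/- leukemias with overlap (-0.44, SE 0.10, adjusted p = 0.0042). Both calls held in every alternative fit run, but no fit had platelet markers as a covariate. Over the Pax5+/- leukemias, Tgfb1 rose in the same order of arrays as the platelet marker mean (8.30 to 10.66). The other leukemia genotype broke this order, as its replicate 2 had the highest platelet mean, 9.66, with Tgfb1 at 10.83. Sorted WT cells had a Tgfb1 mean of 11.50 with platelet means of 6.84 to 6.96. The part of platelet RNA in the Tgfb1 differences was not tested. Pax5+/- leukemias and sorted WT cells differed by -0.16 (95% interval -0.41 to 0.08, adjusted p = 0.322).

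Tgfbr2 was lower in both leukemias. The Pax5+/-;Myd88+/- leukemias ranged between 8.94 and 9.89 (median 9.66) and the Pax5+/- leukemias between 9.42 and 10.50 (median 9.78), against 10.39, 10.37, 10.48 and 10.59 in sorted WT cells. The differences from sorted WT cells were -0.88 (SE 0.20, adjusted p = 0.00277) and -0.57 (SE 0.20, adjusted p = 0.0471). The second did not pass when Pax5+/- leukemia replicate 2, 3, 4 or 6 or any 1 of the 4 sorted WT samples was left out, with adjusted p between 0.0641 and 0.126. The 2 leukemia groups differed by -0.31 (95% interval -0.69 to 0.06, adjusted p = 0.18).

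Smad2, relative to sorted WT cells, was lower in the Pax5+/-;Myd88+/- leukemias (-0.32, SE 0.07, adjusted p = 0.00209) and in the Pax5+/- leukemias (-0.23, SE 0.07, adjusted p = 0.0203). Both ranges overlap that of sorted WT cells, with 8.73 to 9.02 in the Pax5+/-;Myd88+/- leukemias and 8.87 to 9.08 in the Pax5+/- leukemias against 9.02 to 9.31 in sorted WT cells. The Pax5+/- difference did not pass without sorted WT replicate 2 (adjusted p = 0.0701) or 3 (adjusted p = 0.0695). Smad3, which read between 9.25 and 10.20 over the 12 leukemias and between 9.34 and 9.48 in sorted WT cells, passed in none of the 3 comparisons, nor did Tgfb2, Tgfb3, Tgfbr1 and Smad6. Tgfb3 was higher in every Pax5+/- leukemia than in sorted WT cells (0.79, 95% interval 0.16 to 1.41, adjusted p = 0.0656). Without Pax5+/- leukemia replicate 6, Tgfb3 (0.88, adjusted p = 0.0454) and Bmpr1a (0.76, adjusted p = 0.0296) passed as higher there, and without Pax5+/-;Myd88+/- leukemia replicate 4, Tgfbr1 passed as lower than in sorted WT cells (-0.46, adjusted p = 0.0323).

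Smad7 and Bmpr1a differed between the 2 leukemia genotypes. Smad7 read 8.53, 9.07, 8.58, 8.37, 9.02 and 9.03 in the Pax5+/-;Myd88+/- leukemias against 8.98, 9.11, 9.95, 9.32, 8.81 and 9.56 in the Pax5+/- leukemias, a difference of -0.52 (SE 0.18, adjusted p = 0.0313). Bmpr1a read 5.28, 6.22, 5.25, 5.07, 5.58 and 5.17 against 6.05, 6.92, 5.96, 5.99, 6.69 and 5.39 in the same order, a difference of -0.74 (SE 0.23, adjusted p = 0.0242). The groups overlap for both genes. The Bmpr1a means of 5.43 and 6.17 lie under the lowest array median, 6.88, and were not shown to be above background. The Smad7 call was lost without replicate 1, 3 or 4 of the Pax5+/-;Myd88+/- or replicate 3, 4 or 6 of the Pax5+/- leukemias (adjusted p between 0.0539 and 0.071). The Bmpr1a call was lost without replicate 4 or 6 of the Pax5+/-;Myd88+/- or replicate 2 or 5 of the Pax5+/- leukemias (adjusted p between 0.0502 and 0.0572).

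RNA of other cells differed between these groups as well. The mean of 10 stromal markers lay between 6.92 and 8.85 in the Pax5+/-;Myd88+/- leukemias and between 7.68 and 8.82 in the Pax5+/- leukemias, against 6.31 to 6.45 in sorted WT cells. For 10 macrophage markers it was 6.85 to 9.43 and 8.11 to 9.10 against 6.83 to 7.05, and for 7 platelet markers 6.54 to 9.66 and 8.30 to 10.66 against 6.84 to 6.96, in the same order. NK-cell markers ran the other way, with 6.06 to 6.97 and 6.16 to 6.99 in the leukemias against 8.51 to 9.31 in sorted WT cells. Of these, 6 of 7 passed as lower in both leukemias. As lower passed also 4 of 5 erythroid markers in each and 2 and 4 of 7 T-cell markers, and as higher 1 and 5 of 5 endothelial markers, in the same order. Only the stromal and macrophage means were fitted as covariates. The part of NK, erythroid, T-cell, endothelial and platelet RNA in the member differences was not tested.

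With the stromal marker mean as a covariate, Tgfb1 and Tgfbr2 still passed in the Pax5+/-;Myd88+/- leukemias against sorted WT cells, none of the members passed in the Pax5+/- leukemias against sorted WT cells, and only Tgfb1 passed between the leukemias. With the macrophage marker mean instead, Tgfbr1 passed as lower in the Pax5+/-;Myd88+/- (-0.66, adjusted p = 0.00612) and Pax5+/- leukemias (-0.62, adjusted p = 0.0379) against sorted WT cells, Smad2 was lost in the Pax5+/- leukemias against sorted WT cells (-0.18, adjusted p = 0.293) and Bmpr1a between the leukemias (-0.64, adjusted p = 0.0578). Without replicates 2 and 4 of both leukemia groups, whose B-lineage markers were lowest, Smad7 no longer passed between the leukemias (adjusted p = 0.0951) and Tgfbr2 did (-0.62, adjusted p = 0.0316).

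The Pax5+/-;Myd88+/- minus Pax5+/- difference, called the effect below, was larger in size in proB cells than in leukemias for 4 members. For Tgfb3 it was -0.37 in leukemias and -3.78 in proB cells, for Bmpr1a -0.74 and -2.13, for Smad7 -0.52 and -1.94, and for Tgfb2 0.01 and -1.05. The difference of the 2 effects was tested with an interaction term over all 32 arrays, a test added after the values were seen, and passed for these 4 (adjusted p between 4.33e-08 and 0.0021) and for Tgfb1 (-0.44 in leukemias and 0.06 in proB cells, adjusted p = 0.014). For comparison, 21.8% of all probesets passed that test, which crosses 2 experiments made from different material. Xist was over 9 in 4 of 4 Pax5+/-;Myd88+/- and 0 of 4 Pax5+/- proB arrays, against 3 of 6 and 1 of 6 leukemias. Genotype and sex therefore cannot be told apart in the proB part of the test.

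Across all 7 groups, the order of levels differed from gene to gene. Tgfb3 was highest in Pax5+/- proB cells (10.65 ± 0.16, mean ± SD, n = 4), followed by Pax5+/-;Myd88-/- (9.44 ± 0.30) and WT proB cells (9.27 ± 0.34), which overlap each other, and then by Pax5+/- leukemias (7.57 ± 0.49, n = 6), Pax5+/-;Myd88+/- leukemias (7.20 ± 0.62, n = 6), Pax5+/-;Myd88+/- proB cells (6.87 ± 0.22) and sorted WT cells (6.78 ± 0.09), each of which overlaps the next. Bmpr1a was highest in Pax5+/-;Myd88-/- (8.78 ± 0.19) and Pax5+/- proB cells (8.01 ± 0.36), neither of which overlaps the next group, while the other 5 groups lay between 5.43 and 6.17 and overlap in turn. For Tgfb2 only Pax5+/- proB cells (7.68 ± 0.09) stood clear at the top. Smad6 had the narrowest range of group means, 0.20, and Smad2 the next, 0.34.

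Comparisons across the experiments were made as well, and since the material, the animals and perhaps the normalization differ, they are a description. WT proB cells against sorted WT cells had 2 members passing as higher and 4 as lower (22.9% and 19.6% of all probesets). Tgfb3 was 2.49 higher (SE 0.27, adjusted p = 1.75e-08), while Tgfbr1 (-0.90), Smad7 (-0.91), Tgfbr2 (-0.61) and Tgfb1 (-0.48) were lower, and Tgfb2 was higher by 0.28 (adjusted p = 0.0476). The Tgfb2 call was lost without replicate 1, 2 or 3 of the sorted or replicate 1 or 3 of the WT proB samples (adjusted p between 0.0725 and 0.133). Smad2 passed as lower without replicate 4 of the sorted samples (-0.20, adjusted p = 0.0253). In this comparison 6 of 10 stromal markers passed as higher, and 7 of 7 NK-cell, 5 of 5 erythroid and 3 of 8 granulocyte markers as lower.

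Pax5+/- leukemias against Pax5+/- proB cells had 3 members passing as higher and 4 as lower (22.3% and 31.1%), the largest being Tgfb3 at -3.08 (SE 0.25, adjusted p = 7.7e-11), Bmpr1a at -1.84 and Tgfb2 at -1.56. Smad3 rose by 0.42 there (adjusted p = 0.0243), and this call was lost without replicate 3 or 4 of the leukemias or 1 or 3 of the proB cells (adjusted p between 0.0625 and 0.0721). In this comparison 7 of 7 platelet, 8 of 8 granulocyte, 8 of 10 macrophage and 5 of 5 endothelial markers passed as higher and 5 of 9 B-lineage markers as lower. Pax5+/-;Myd88+/- leukemias against proB cells of that genotype had 3 passing as higher and 1 as lower (6.36% and 8.21%). These were Tgfbr1 at 0.67, Smad7 at 0.58, Smad3 at 0.53 and Tgfb2 at -0.51, whereas Tgfb3 differed by 0.33 (95% interval -0.17 to 0.84). The Smad7 call was lost without replicate 1 of the proB cells (adjusted p = 0.111), and that of Smad3 without replicate 2 or 5 of the leukemias or 1 or 2 of the proB cells (adjusted p between 0.0557 and 0.076). Here 7 of 10 macrophage, 3 of 8 granulocyte and 3 of 5 endothelial markers passed as higher and 2 of 9 B-lineage markers as lower, and the part of other cells in these 3 comparisons was not tested.

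Of 102 other genes of the pathway, listed with earlier results of these arrays known, 97 were measured. In Pax5+/- against WT proB cells 1 passed as higher (1.03%, against 4.10% of all probesets) and 4 as lower (4.12%, against 2.96%), with a median change of -0.02 over the 97 genes and of 0.00 over all probesets. In the other 5 proB comparisons between 2 and 4 passed as higher (2.06% to 4.12%, against 2.02% to 9.78% of all probesets) and between 2 and 8 as lower (2.06% to 8.25%, against 2.29% to 5.95%). Over 2-fold changes were confined to 2 genes, each against WT cells. Eng, endoglin, a co-receptor for TGF-β and BMP ligands, had means of 6.62 for Pax5+/-;Myd88-/-, 6.73 for Pax5+/-;Myd88+/- and 6.80 for Pax5+/- cells, against 9.16 for WT cells (-2.54, -2.43 and -2.36, adjusted p of 1.36e-11 or less). Lrrc32, which anchors latent TGF-β to the cell surface, averaged 7.10, 6.82 and 7.22 against 8.26 in the same order (adjusted p of 0.00319 or less).

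No other gene of the pathway lists passed with an over 2-fold change in proB cells. Furin, a protease that cleaves the TGF-β precursor, was lower in Pax5+/-;Myd88-/- cells than in Pax5+/- (-0.71, adjusted p = 0.000103), Pax5+/-;Myd88+/- (-0.57, adjusted p = 0.00111) and WT cells (-0.49, adjusted p = 0.00252). Tgfbr3, a co-receptor that presents ligand, was higher than in Pax5+/- cells in both Pax5+/-;Myd88-/- (0.40, adjusted p = 0.0227) and Pax5+/-;Myd88+/- cells (0.59, adjusted p = 0.00186). Of the 11 measured target genes, Id3, a target of BMP signaling, was lower than in WT cells in Pax5+/-;Myd88-/- (-0.71), Pax5+/-;Myd88+/- (-0.53) and Pax5+/- cells (-0.52), with adjusted p of 0.0137 or less. It was the only target gene passing as lower there (9.09%, against 2.72% to 5.95% of all probesets). In each comparison of Pax5+/-;Myd88-/- cells with another genotype 1 target gene passed as higher (9.09%, against 6.34% to 9.78%). In Pax5+/-;Myd88+/- against Pax5+/- cells 1 passed as lower (9.09%, against 2.29%). Furin, Tgfbr3 and Id3 were named after their values were seen.

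In the leukemia experiment 3 of the 97 genes passed as higher (3.09%, against 13.8% of all probesets) and 17 as lower (17.5%, against 17.1%) in Pax5+/-;Myd88+/- leukemias against sorted WT cells. In Pax5+/- leukemias against sorted WT cells these were 8 (8.25%, against 11.7%) and 14 (14.4%, against 12.8%), and between the leukemias 10 (10.3%, against 18.1%) and 13 (13.4%, against 16.3%). The shares passing as lower were thus near those of all probesets. Past 2-fold, Id2, Tgif1 and Id3 fell by 1.77, 1.43 and 1.06 in the Pax5+/-;Myd88+/- leukemias against sorted WT cells. Id2, an inhibitor of E proteins, averaged 8.78 there, 11.14 in Pax5+/- leukemias and 10.55 in sorted WT cells, and Tgif1, a corepressor of Smads, 8.75, 9.53 and 10.19. Id2 is also expressed by NK cells. The mean of the NK-cell markers had a median of 8.80 in sorted WT cells, 6.54 in Pax5+/-;Myd88+/- leukemias and 6.49 in Pax5+/- leukemias. The part of NK cells in the Id2 values was not tested.

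In the Pax5+/- leukemias against sorted WT cells, Thbs1, Dcn, Lrrc32 and Ltbp1 rose by 3.20, 2.38, 1.90 and 1.70 and Skil, a Smad corepressor, fell by 1.14. Thbs1 frees latent TGF-β and is abundant in platelets, Dcn binds TGF-β and is itself 1 of the 10 stromal markers, and Ltbp1 binds the latent form in the matrix. Between the leukemias Id2 (-2.37), Dcn (-1.46) and Ltbp1 (-1.01) were lower in the Pax5+/-;Myd88+/- group. The part of stromal and platelet RNA in these changes was not tested.

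The genes whose profile over the 16 proB arrays was most like that of Tgfb3 were Ptger4, Ocrl, Nt5dc2 and Plxna3, with Pearson correlations of 0.983, 0.969, 0.961 and 0.940. Ptger4, a prostaglandin E2 receptor, had means of 9.20 for Pax5+/-;Myd88-/-, 8.34 for Pax5+/-;Myd88+/-, 9.80 for Pax5+/- and 9.38 for WT cells. In the leukemia experiment Tgfbr2 had the widest range of group means among the members, 0.89, and Sit1, Tmem71, St3gal1 and Hdac10 were most like it over 16 arrays, with correlations of 0.932, 0.920, 0.916 and 0.914. Arrays of a group share their genotype and material, so these correlations describe mostly the differences between groups.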

How the data were processed

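RNA was measured on 32 Affymetrix mouse gene arrays. The authors made the deposited log2 values with Transcriptome Analysis Console by RMA at the gene level (background correction, quantile normalization and probe summary), and it is not given in the sources used here whether all arrays were normalized together. No value was changed here, no probeset was filtered, and the number of arrays limits the precision. Probesets were named by the platform's annotation. limma 3.58.1 (R 4.3.3; linear model, empirical Bayes, Benjamini-Hochberg over 28944 probesets) was fitted to the 3 groups of the leukemia and the 4 of the proB experiment, and to all 7 for comparisons across experiments. A member passed at an adjusted p under 0.05, and the study's fold of 2 gave a second count. The fit was tested on simulated data with independent arrays, which cannot show what a culture shared by replicates does to p-values. Members, lists and tests were chosen with earlier results of these data known. Named beside the members were pathway genes that passed over 2-fold (at most 6 per comparison) and 4 genes of like pattern per experiment. Furin, Tgfbr3 and, in proB cells, Id3 were named outside this rule, after their values were seen. Alternatives were other fits and scalings, a filter on dim probesets, the replicate block, the methods' t-test and leaving out arrays. Same-numbered arrays deviated together in every pair (correlation over 0.1) in 1 of 12 comparisons, Pax5+/-;Myd88-/- against WT proB cells, whose labels do not say what a number shares.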

Additional observations from a re-analysis of the deposited data

Results flagged for a closer look

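The effect, Pax5+/-;Myd88+/- minus Pax5+/-, in leukemias minus that in proB cells, passed the interaction test for 5 members. Of all probesets 21.8% passed that test, and genotype and sex cannot be told apart in its proB part. The difference of effects was 3.41 for Tgfb3 (SE 0.35, adjusted p = 4.33e-08), 1.42 for Smad7 (SE 0.24, adjusted p = 5.83e-05), 1.39 for Bmpr1a (SE 0.32, adjusted p = 0.0021), 1.05 for Tgfb2 (SE 0.15, adjusted p = 6.58e-06) and -0.50 for Tgfb1 (SE 0.15, adjusted p = 0.014), all on the log2 scale from limma.

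In 2 of 70 sets of replicates 1 array lay far from the others, where chance marks about 1 in 20. Tgfbr1 read 9.82 in replicate 2 of the sorted WT proB and preB cells, against 9.59 in the next array, and Smad6 read 7.13 in replicate 3 of the WT proB cells, against 6.87.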

How the results depend on the processing

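Over 2320 refits of single member differences, 2112 kept their direction and side of the threshold, 83 lost and 38 gained a call, 85 turned round without passing before or after, and 2 turned round with a call. With the stromal covariate, Bmpr1a (-0.12, against 0.60) and Smad3 (-0.13, against 0.33) in Pax5+/- leukemias and Tgfb3 (-0.02, against 0.42) in Pax5+/-;Myd88+/- leukemias, each minus sorted WT cells, were among the 85. The 2 with a call were Tgfb3 in Pax5+/-;Myd88-/- against WT proB cells, at -0.38 with replicates 2 and 4 alone, and Smad2 in Pax5+/- leukemias against Pax5+/- proB cells, at -0.16 (adjusted p = 0.00529) after a repeated quantile normalization, against 0.04. The number of members passing in Pax5+/- leukemias against sorted WT cells, 2, became 4 with all arrays in 1 fit, 1 with centred medians, limma-trend, the methods' t-test or without the leukemias of low B-lineage signal, and 0 with the stromal covariate. Between the leukemias, 3 became 1 with only both groups fitted, the methods' t-test or the stromal covariate. In Pax5+/-;Myd88+/- against WT proB cells, 1 became 2 after repeated quantile normalization, with the stromal covariate or with replicates 2 and 4 alone. In Pax5+/-;Myd88-/- against WT proB cells, 3 became 1 with all arrays in 1 fit or with averaged pairs (of WT alone or of all genotypes), and 5 after repeated quantile normalization. In Pax5+/-;Myd88-/- against Pax5+/- proB cells, 5 became 3 with all arrays in 1 fit and 2 with averaged pairs, and against Pax5+/-;Myd88+/- proB cells 3 became 5 with the stromal covariate or replicates 2 and 4 alone. In Pax5+/-;Myd88+/- leukemias against proB cells, 4 became 2 with only both groups fitted and 1 with the methods' t-test. The cause was not tested. The marker covariates, the averaged pairs, the replicate subset and the left-out leukemias were chosen after seeing the data.

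Leaving out 1 array gave 0 to 3 members passing in Pax5+/- leukemias against sorted WT cells, 1 to 3 between the leukemias, 2 to 4 in Pax5+/-;Myd88+/- leukemias against proB cells, 3 to 4 in Pax5+/-;Myd88+/- leukemias against sorted WT cells, and in the 6 proB comparisons at most 1 more than with all arrays. With the replicate number as a block, Tgfbr2 (adjusted p = 0.108) and Smad2 (adjusted p = 0.0543) no longer passed in Pax5+/- leukemias against sorted WT cells while Tgfb3 and Bmpr1a did, Tgfb2 was lost between WT proB and sorted WT cells (adjusted p = 0.0581), and Tgfb1 passed in all 3 comparisons of Pax5+/-;Myd88-/- proB cells. The block changed no other call of a member, and same-numbered arrays had correlations of their deviations between -0.27 and 0.52.

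Over all probesets, counts of calls moved by more than 1.5 times in several refits. Against 1246 to 4553 calls, there were 449 to 1295 with averaged pairs, and 352 to 2068 with all arrays in 1 fit. Replicates 2 and 4 alone gave 5052 against 2042 (Pax5+/- minus WT), 5281 against 1753 (Pax5+/-;Myd88+/- minus WT), 5548 against 3336 (Pax5+/-;Myd88-/- minus Pax5+/-) and 4673 against 3003 (Pax5+/-;Myd88-/- minus Pax5+/-;Myd88+/-). The methods' t-test gave 926, 798, 1547 and 1441 for these, and 800 against 1246 for Pax5+/-;Myd88+/- minus Pax5+/-. The stromal covariate gave 5649 against 3336 and 5591 against 3003 for Pax5+/-;Myd88-/- minus each other Pax5+/- genotype, where leaving out 1 array gave as few as 1700 and 1458. In Pax5+/- leukemias against sorted WT cells, 7087 became 1887 with the stromal and 3645 with the macrophage covariate, and in Pax5+/-;Myd88+/- leukemias against proB cells 4218 became 1760 with only both groups fitted, 1157 with the methods' t-test and 2416 without proB replicate 2. Signal over background limits Tgfb2, Smad6 and the low Bmpr1a and Tgfb3 readings, which lay near or below the array median.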
